A study of Mus musculus with 4 samples.

Results

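Insulin and insulin-like growth factor (IGF) signalling was followed through 9 genes in mouse HT22 cells: the receptors Insr and Igf1r, the adaptors Irs1 and Irs2, the phosphoinositide 3-kinase (PI3K) regulatory subunit Pik3r1, the kinases Akt1 and Akt2, and the forkhead factors Foxo1 and Foxo3. They were chosen by symbol, mapped from Ensembl gene identifiers, and were 9 of the 47069 genes in the files. All 9 had a mean of at least 1 FPKM (read density, corrected for gene length and library size) over the libraries, a level that 12255 genes reached and that was required of every gene compared. Insr, Irs1 and Foxo1 were near that limit, each being at or above 1 FPKM in only 2 of the 4 libraries. Irs1 reached the limit only through 1 library, the labelled knockdown under oxygen-glucose deprivation, since the other 3 libraries averaged 0.71 FPKM.

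HT22 is an immortalised line derived from mouse hippocampal neurons, labelled as of the C57BL/6 strain. All cells were infected with a virus 2 h after seeding, either a control adenovirus or an adenovirus labelled as a knockdown of the long noncoding RNA AK046375. They were then grown in normal culture or exposed for 6 h to oxygen-glucose deprivation (OGD), with glucose-free medium and nitrogen in place of oxygen, a culture model of ischaemia. Each of the 4 combinations was represented by 1 library, so no difference has a replicate check and no test between conditions was possible. The series title and design text speak instead of a lentivirus and of overexpression, and AK046375 itself was not analysed here. For that reason the 2 libraries are called "labelled knockdown", and no direction is tied to the transcript itself.

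In this pathway, insulin and the IGFs bind receptor tyrosine kinases, which phosphorylate IRS docking proteins. These recruit PI3K, and its lipid product brings AKT to the membrane, where AKT is activated. AKT then phosphorylates FOXO factors, which leave the nucleus, so that their target genes are expressed less. Starvation of the pathway has the opposite effect, and Irs2 in liver is itself a well-known FOXO-regulated gene. In neurons the pathway is known for its roles in survival, growth and glucose handling.

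The libraries held between 23327743 and 27539845 expected counts. All intervals below are 95% counting intervals; they cover counting error only, since PCR-amplified reads without molecular identifiers are not independent molecules. The libraries also differed by gene length. The mean gene length per counted read was 1835 nt in the normal-culture control library, 1545 nt in the labelled knockdown library in normal culture, 1815 nt in the control library in OGD and 2153 nt in the labelled knockdown library in OGD. Across the 12255 genes, the log2 ratio of labelled knockdown to control had a Spearman correlation with gene length of -0.43 in normal culture and 0.57 in OGD. This is a description across genes, which share libraries and are not independent. Longer genes thus sat lower in the labelled knockdown library in normal culture and higher in OGD, and 7 of the 9 genes lie in the 3 longest of 20 bins of length. A value "less its length bin" below is the log2 ratio minus the median of the genes in the same bin. The part of length in the differences was not tested. Of 12 neuronal markers, 3 reached 1 FPKM in any library (Tubb3, Eno2 and Map2), and Rbfox3, Nefl, Nefm, Snap25 and Dcx had 0 counts in all 4 libraries. Summed neuronal markers were at 89.9 FPKM (control) and 62.5 FPKM (labelled knockdown) in normal culture and at 21.3 and 22.3 FPKM in OGD, while 4 of 5 fibroblast markers reached 1 FPKM in a library, with Lum at 0 and sums of 377 to 716 FPKM. Of 4 neural progenitor markers, 3 reached 1 FPKM in a library, with Sox2 at 0 and sums of 900 to 4711 FPKM. In bulk RNA, fewer cells of a type and less RNA per cell cannot be told apart.

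**Figure D1:**
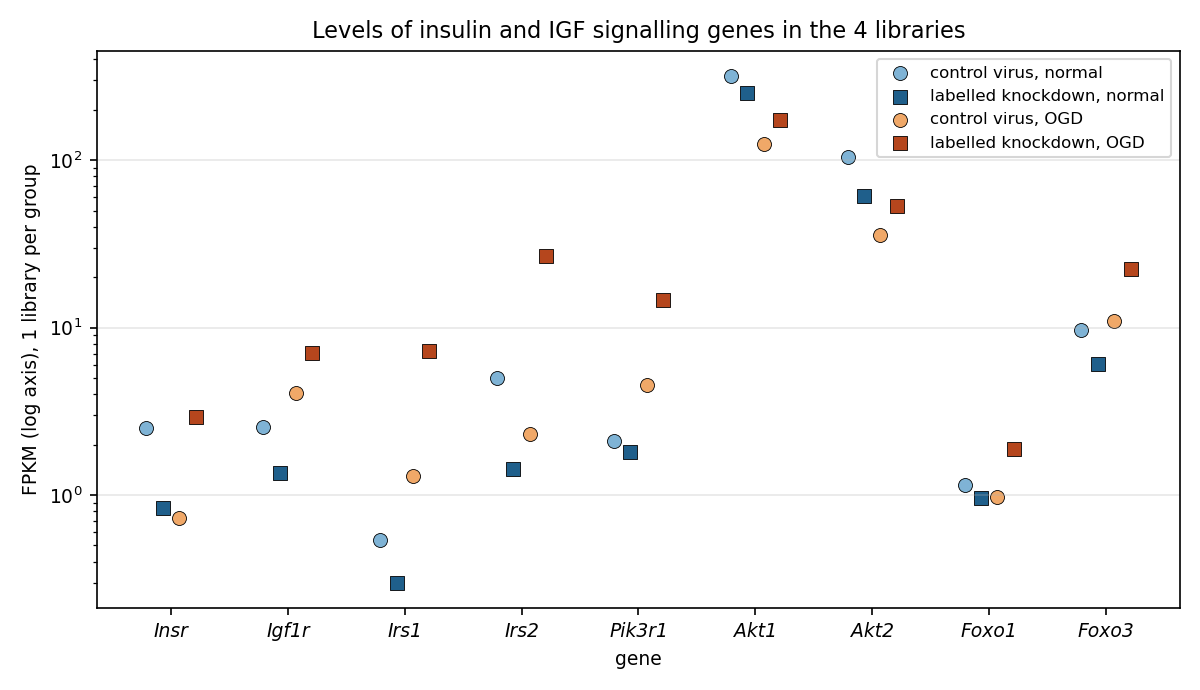
FPKM of the 9 genes (log axis) in each of the 4 libraries, 1 point per library; circles are control virus, squares the labelled knockdown, blue normal culture and orange OGD. The labelled knockdown library in OGD was highest for Insr, Igf1r, Irs1, Irs2, Pik3r1, Foxo1 and Foxo3, and the control library in normal culture for Akt1 and Akt2.

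Insr encodes the insulin receptor (GRCm38, GENCODE, chr8:3122061-3279617, minus strand). Its level was 2.53 FPKM (468 counts) in the control library and 0.84 FPKM (148 counts) in the labelled knockdown library in normal culture, and 0.73 FPKM (152 counts) and 2.94 FPKM (472 counts) in OGD. The gene thus had 2 high libraries, control in normal culture and labelled knockdown in OGD, and 2 low ones. The labelled knockdown library was 3.02-fold lower than control in normal culture (95% interval 2.50 to 3.65) and 4.05-fold higher in OGD (3.36 to 4.89). With control virus, OGD was 3.48-fold lower than normal culture (2.90 to 4.21), whereas with the labelled knockdown it was 3.50-fold higher (2.91 to 4.24). This last difference, 1.10 on the log2(FPKM + 1) scale, was -0.36 less its length bin, while the difference with control virus, -1.03, was -1.10.

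Igf1r encodes the IGF type 1 receptor (chr7:67952827-68233668, plus strand). It measured 2.56 FPKM in the control and 1.35 FPKM in the labelled knockdown library in normal culture, and 4.06 and 7.07 FPKM in OGD. Unlike Insr, it was higher in OGD with either virus, 1.58-fold with control (1.36 to 1.84) and 5.24-fold with the labelled knockdown (4.35 to 6.34). Between viruses the labelled knockdown was 1.90-fold lower in normal culture (1.54 to 2.35) and 1.74-fold higher in OGD (1.55 to 1.96). Both of these virus differences lay near the median of their length bin, at -0.08 and -0.10 on the log2 scale.

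The balance of the 2 receptors within a library differed between libraries. The ratio of Igf1r to Insr FPKM was 1.01 (0.870 to 1.17) in the normal-culture control library and 5.58 (4.64 to 6.74) in the control library in OGD. It was 1.61 (1.26 to 2.04) in the labelled knockdown library in normal culture and 2.40 (2.13 to 2.70) in OGD. A ratio within a library does not depend on how libraries are scaled. It can still carry the differences by gene length between libraries where the 2 genes differ in length, which was not tested. The interval of the control OGD library did not overlap the other 3.

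Irs1 and Irs2 encode the docking proteins that couple both receptors to PI3K. Among the 9 genes they had the widest ranges of log2(FPKM + 1) over the 4 libraries, 2.67 and 3.52. For Irs1 this range is tied to the limit of 1 FPKM, which it reached only through its highest library. Irs1 (chr1:82233101-82291416, minus strand) measured 0.54 FPKM (125 counts) and 0.30 FPKM (62 counts) in normal culture, control first, and 1.29 FPKM (318 counts) and 7.28 FPKM (1518 counts) in OGD. The labelled knockdown library in OGD stood alone at the top. There it was 5.64-fold above control (4.99 to 6.38) and 24.5-fold above the labelled knockdown in normal culture (19.0 to 32.1). With control virus, OGD was 2.40-fold higher than normal culture (1.95 to 2.98). In normal culture the labelled knockdown was 1.81-fold lower than control (1.32 to 2.49), and this difference of -0.24 on the log2(FPKM + 1) scale was 0.24 less its length bin. Irs1 shares 2822 exon bases with Gm9747 on the opposite strand, which had 31, 52, 143 and 385 counts in the same order; no source used here states whether counting was stranded, so reads in the overlap are uncertain.

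Irs2 (chr8:10984681-11008458, minus strand) measured 5.02 FPKM (499 counts) in the control library and 1.42 FPKM (127 counts) in the labelled knockdown library in normal culture. In OGD it measured 2.32 FPKM (244 counts) with control virus and 26.81 FPKM (2391 counts) with the labelled knockdown. The last value is 18.9 times the lowest. The labelled knockdown was 3.52-fold lower than control in normal culture (2.89 to 4.31) and 11.6-fold higher in OGD (10.1 to 13.3). OGD was 2.16-fold lower than normal culture with control virus (1.85 to 2.53) and 18.8-fold higher with the labelled knockdown (15.7 to 22.7). Less its length bin, the virus difference in OGD was still 2.34 on the log2 scale, above 99.8% of the 613 genes of that bin, and in normal culture it was -0.77, above 7.99% of them. In the authors' deposited table for normal culture, Irs2 was the single member listed, with a log2 fold change of -1.55, among 1342 genes; the authors' deposited table for OGD lists 219 genes and none of the 9. Irs2 shares 162 exon bases with the opposite-strand transcript 9530052E02Rik, which had at most 6 counts in any library.

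Within each library Irs2 was the more abundant of the 2 adaptors per length, but by different margins. The ratio of Irs2 to Irs1 FPKM was 9.33 (7.66 to 11.4) in the normal-culture control library, 4.79 (3.51 to 6.61) in the labelled knockdown library in normal culture, 1.80 (1.51 to 2.13) in the control library in OGD and 3.68 (3.45 to 3.93) in the labelled knockdown library in OGD. Irs2 has a length of 4024 nt and Irs1 of 9144 nt, and the part of length in these ratios was not tested. The IRS genes summed to 5.56, 1.74, 3.73 and 34.2 FPKM in the order of libraries above. Irs3 stayed at or below 0.12 FPKM and Irs4 had 0 counts in every library, where a count of 0 allows up to 0.0211 FPKM (3 counts).

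The promoters of the 2 adaptors share letters that the choice of genes did not use. Both are shown because these genes had the widest ranges of the 9 over the 4 libraries, which for Irs1 is tied to the limit of 1 FPKM. RefSeq windows of 250 bases before and 50 after a start site (GRCm38.p6) were available for 8 of the 9 genes, 13 windows in all. The windows were searched on both strands for CACGTG, a palindromic E-box, and for TGTTTTG, the core of the insulin response element to which FOXO factors are known to bind. They were also searched for the forkhead motif TGTTTAC, which was in 1 member window, of Akt1, and in 3.65% of all windows, and for the hypoxia response core (ACGTG or GCGTG), which CACGTG contains and which was in 43.8% of all windows and in a window of each of the 8 genes. The 250 bases before the RefSeq start are printed 5' to 3' on the strand of the gene, with both motifs in capitals.
Irs1 promoter, chr1:82291440-82291689, minus strand: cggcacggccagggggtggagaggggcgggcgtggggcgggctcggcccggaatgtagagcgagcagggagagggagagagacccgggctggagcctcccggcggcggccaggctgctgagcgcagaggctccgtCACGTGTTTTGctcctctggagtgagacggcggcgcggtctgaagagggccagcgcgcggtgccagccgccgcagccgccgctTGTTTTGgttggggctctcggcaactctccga
Irs2 promoter, chr8:11008930-11009179, minus strand: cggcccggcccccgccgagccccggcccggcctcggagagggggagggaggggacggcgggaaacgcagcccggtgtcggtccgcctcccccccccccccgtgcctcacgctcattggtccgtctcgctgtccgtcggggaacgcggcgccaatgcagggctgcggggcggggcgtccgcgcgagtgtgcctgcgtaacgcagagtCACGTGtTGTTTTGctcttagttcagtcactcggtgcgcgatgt
Irs4 promoter, 54 bases, chrX:141725338-141725391, minus strand: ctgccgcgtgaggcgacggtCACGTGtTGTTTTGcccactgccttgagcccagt
In Irs1 the E-box starts 115 bases before the start site and TGTTTTG 111 bases before it, so that 2 bases are shared, and a second TGTTTTG starts 32 bases before it. In Irs2 they start 44 and 37 bases before the start site with 1 base between them. None of the other 6 genes with a window had either motif in it. CACGTG was present in 7.15% and TGTTTTG in 6.28% of all 32851 mouse windows, and both together in 134 windows (0.408%). They started within 10 bases of each other in 9 windows (0.0274%), and 3 of the 9 belonged to Irs1, Irs2 and Irs4, a relative that was not expressed here. The close pair was chosen for counting after the Irs1 and Irs2 windows had been read, and a match is a description of letters, not a bound site. Of the other genes with such a window, Pcbp1, Pyroxd1 and Klf11 were compared, with log2 ratios of labelled knockdown to control in OGD of 0.30, 0.04 and 0.40, against 1.85 for Irs1 and 3.07 for Irs2. In normal culture they were at -0.21, 0.06 and -1.32, against -0.24 for Irs1 and -1.31 for Irs2, so that Klf11 was as low there as Irs2. The RefSeq start of Irs2 lies 471 bp upstream of the GENCODE gene start, and that of Irs1 23 bp upstream.

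Pik3r1 encodes the p85-alpha regulatory subunit of PI3K, which binds phosphorylated IRS proteins (chr13:101680563-101768217, minus strand). It measured 2.09 FPKM in the control and 1.80 FPKM in the labelled knockdown library in normal culture, and 4.54 and 14.7 FPKM in OGD. The normal-culture libraries did not differ beyond counting error, with the labelled knockdown 1.16-fold lower (0.958 to 1.40), a sign that turned under TMM scaling (0.03 on the log2 scale), median-of-ratios scaling (0.05), CPM (0.07) and less its length bin (0.38). In OGD the labelled knockdown was 3.24-fold higher (2.95 to 3.56), and 2.41-fold higher in CPM, which takes no gene length, since the gene length that the authors assigned was 5438 nt in the control and 4103 nt in the labelled knockdown library. OGD was 2.17-fold above normal culture with control virus (1.86 to 2.54) and 8.15-fold above with the labelled knockdown (7.05 to 9.45). Pik3r1 stood at 1.03 and 1.30 on the log2 scale above its length bin in these comparisons.

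Pik3r2 was the most abundant PI3K regulatory subunit in every library, by a smaller margin in OGD. Pik3r2, which encodes p85-beta, measured 139 FPKM (control) and 92.9 FPKM (labelled knockdown) in normal culture and 28.3 and 29.9 FPKM in OGD, an order of libraries kept below wherever 4 values are given. Pik3r3, which encodes p55-gamma, measured 0.51, 0.26, 4.29 and 17.0 FPKM. Pik3r1 therefore made up 1.47% and 1.90% of the summed FPKM of the 3 genes in normal culture, and 12.2% and 23.9% in OGD. The ratio of Pik3r2 to Pik3r1 was 66.6 (58.3 to 76.4) in the normal-culture control library and 2.03 (1.88 to 2.20) in the labelled knockdown library in OGD. In the normal-culture control library Pik3r2 was assigned 2004 nt and Pik3r1 4370 nt. The part of length in this ratio and in these shares was not tested. Among the catalytic subunits, Pik3cd, known from leukocytes, made up 65.6% and 74.2% of the family in normal culture and 12.9% and 8.44% in OGD, where Pik3cb held 53.4% and 53.5%.

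**Figure D2:**
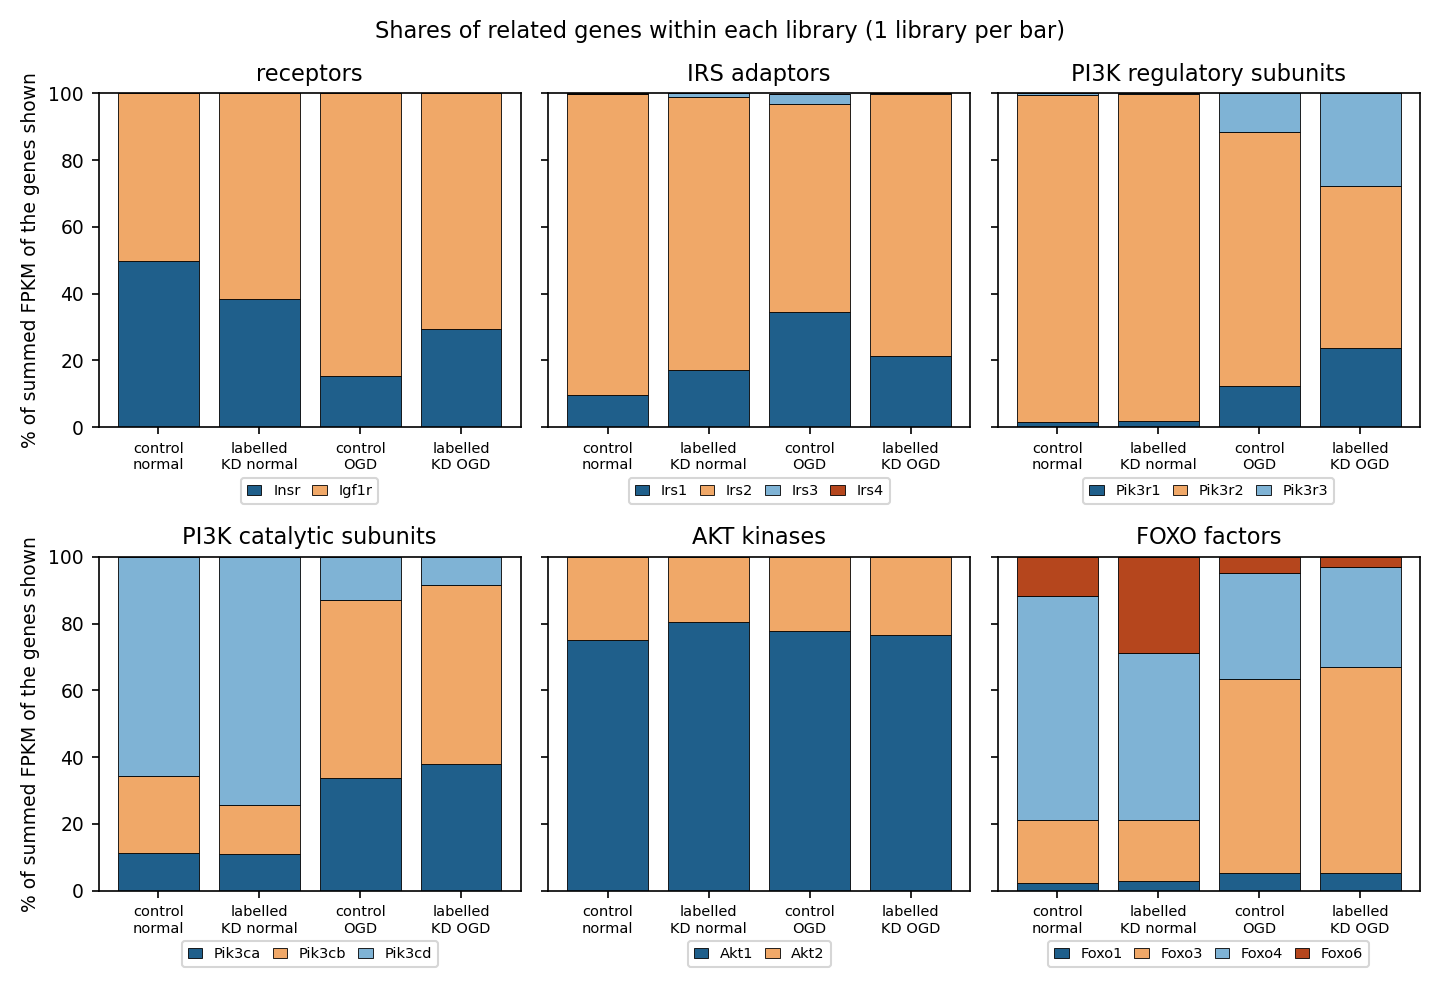
Share of the summed FPKM of related genes (percent) held by each gene, 1 library per bar, KD meaning the labelled knockdown. Pik3r2 held 98.2% and 97.8% of the regulatory subunits in normal culture and 76.2% and 48.6% in OGD, while Akt1 held between 75.2% and 80.4% of the sum of Akt1 and Akt2 throughout.

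Akt1 and Akt2 encode the serine-threonine kinases at the centre of the pathway; Akt2 is known for glucose handling. They were the most abundant of the 9 genes and were ordered differently from the rest. Akt1 (chr12:112653821-112674884, minus strand) measured 318 FPKM in the control and 252 FPKM in the labelled knockdown library in normal culture, and 125 and 174 FPKM in OGD. Akt2 (chr7:27591552-27640826, plus strand) measured 105, 61.4, 35.6 and 53.1 FPKM in the same order. Both were highest in the normal-culture control library and lowest in the control library in OGD. With control virus, OGD was 2.54-fold lower for Akt1 (2.46 to 2.62) and 2.94-fold lower for Akt2 (2.80 to 3.08). With the labelled knockdown it was 1.45-fold lower for Akt1 (1.40 to 1.499) and 1.16-fold lower for Akt2 (1.10 to 1.22), the latter turning to 0.30 on the log2 scale when libraries were rescaled to equal FPKM sums. Between viruses, the labelled knockdown was 1.26-fold lower for Akt1 (1.23 to 1.30) and 1.71-fold lower for Akt2 (1.63 to 1.78) in normal culture, and 1.39-fold (1.34 to 1.44) and 1.49-fold (1.41 to 1.58) higher in OGD. Part of the virus difference in OGD came with the assigned gene length: in CPM, without length, it was 1.07-fold for Akt1 (1.03 to 1.11) and 1.17-fold for Akt2. The difference between OGD and normal culture with control virus was also smaller in CPM, 2.03-fold lower for Akt1 and 2.37-fold for Akt2. Less its length bin this difference was -0.97 for Akt1 and -1.11 for Akt2 on the log2 scale. The ratio of Akt1 to Akt2 was 3.04, 4.10, 3.52 and 3.27 in the 4 libraries.

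Foxo1 and Foxo3 encode forkhead transcription factors that AKT keeps out of the nucleus. Foxo1 (chr3:52268336-52353221, plus strand) was low in every library, at 1.14 FPKM in the control and 0.96 FPKM in the labelled knockdown library in normal culture, and 0.97 and 1.89 FPKM in OGD. Only the labelled knockdown library in OGD stood apart, at 1.95-fold above control (1.65 to 2.31). The other contrasts, 1.19-fold lower with the labelled knockdown in normal culture (0.982 to 1.44) and 1.18-fold lower in OGD with control virus (0.983 to 1.42), did not exceed counting error. Less its length bin, the OGD difference between viruses was -0.32 on the log2 scale. Foxo1 shares 674 exon bases with the antisense gene Gm20402, which had at most 6 counts in a library.

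Foxo3 (chr10:42181841-42276755, minus strand) measured 9.72 FPKM in the control and 6.06 FPKM in the labelled knockdown library in normal culture, and 10.9 and 22.4 FPKM in OGD. The control libraries were close, with OGD 1.12-fold higher (1.03 to 1.21), or 1.30-fold in CPM, without length. The labelled knockdown libraries differed by 3.69-fold, OGD being higher (3.37 to 4.04). Between viruses, the labelled knockdown was 1.60-fold lower in normal culture (1.45 to 1.78) and 2.05-fold higher in OGD (1.92 to 2.20), or -0.08 and 0.20 on the log2 scale less its length bin. In CPM the OGD difference was 1.80-fold (1.68 to 1.92). The assigned gene length in OGD was 4954 nt in the control and 4361 nt in the labelled knockdown library. The composition of the FOXO factors differed between the normal-culture and OGD libraries. Foxo4 was the most abundant in normal culture, at 67.0% and 50.0% of the family sum, and Foxo3 in OGD, at 58.2% and 61.8%. In the normal-culture control library Foxo4 was assigned 2228 nt and Foxo3 4286 nt, and the part of length in these shares was not tested. Foxo4 itself measured 34.4, 16.5, 5.96 and 10.9 FPKM.

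Across the 9 genes, the comparison of viruses asked what the intervention changed in each culture condition. A gene was counted where the log2 ratio of FPKM + 1 was at least 2-fold in size; the added 1 makes this ratio understate the change of low genes, so that Insr, 3.02-fold lower by FPKM in normal culture, stood at -0.94. In normal culture 0 of the 9 genes were higher and 1, Irs2, was lower, against 4.67% and 13.9% of all 12255 genes. All 9 ratios were below 0, with a median of -0.60 against -0.27 for all genes, so that most genes were below 0 as well. Pik3r1 and Foxo1 turned above 0 under TMM scaling and under median-of-ratios scaling, and Pik3r1 also in CPM. Less the length bins 3 of the 9 were above 0, Irs1, Pik3r1 and Foxo1. In OGD 4 of the 9, Insr, Irs1, Irs2 and Pik3r1, were higher and 0 lower, against 16.2% and 2.28% of all genes. Irs1 passed the limit only through the library in which it was high, so it had to differ, and its place in this count supports nothing. All 9 were above 0 there, also under each rescaling of the libraries, with a median of 0.97 against 0.26, so that most genes were above 0 as well. Less the length bins 7 of the 9 were above 0 in OGD, all but Igf1r and Foxo1. Less the length bins, the medians were -0.08 and 0.32, and Irs2 alone kept a 2-fold difference, in OGD. There 925 of all 12255 genes were 2-fold higher and 215 lower.

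**Figure D3:**
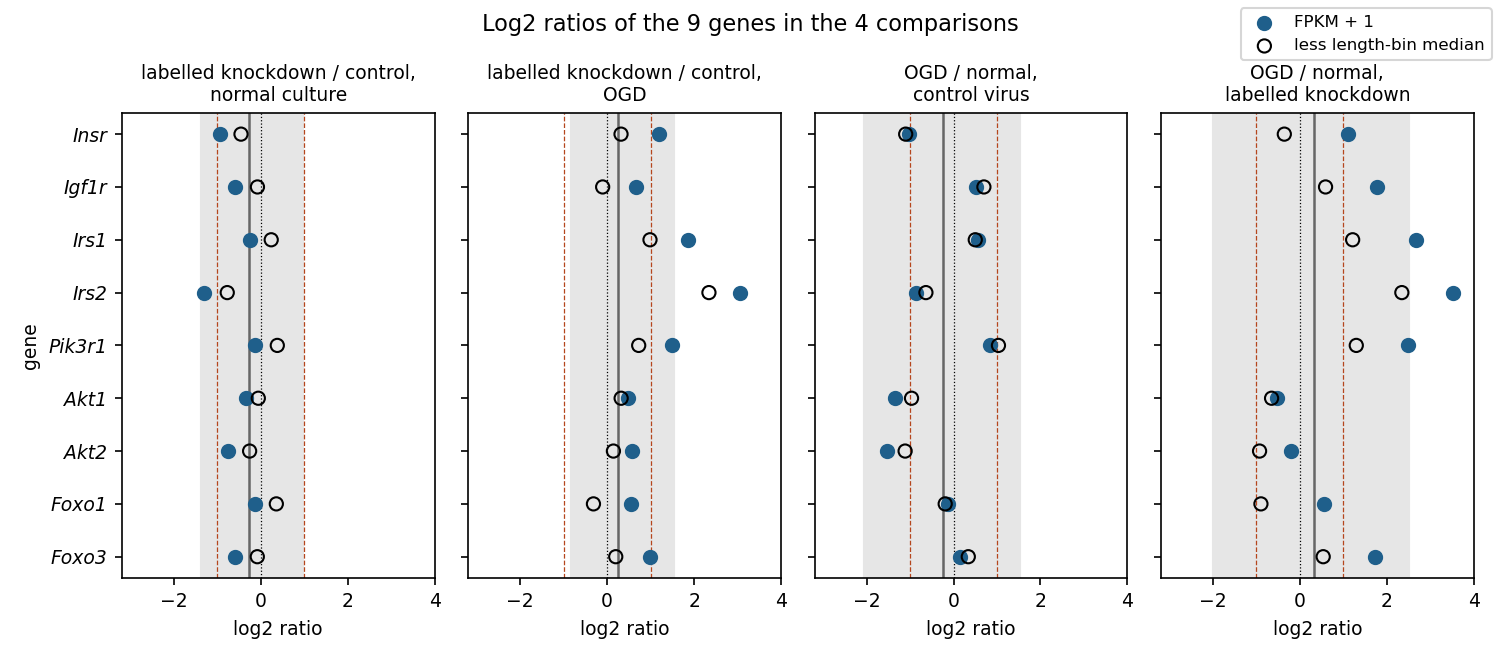
Log2 ratio of FPKM + 1 for the 9 genes in the 4 comparisons (filled points) and the same value less the median of the gene's length bin (open circles); grey bands span the 5th to 95th percentile of 12255 genes, the grey line is their median and dashed lines mark 2-fold. Irs2, at 3.07, and Irs1, at 1.85, lie above the band between viruses in OGD. The open circles of most genes lie nearer 0 than the filled points, except in OGD over normal culture with control virus. There the open circles of Insr, Igf1r, Pik3r1, Foxo1 and Foxo3 lie farther out.

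The comparison of OGD with normal culture asked what deprivation changed under each virus. With control virus 0 of the 9 were 2-fold higher and 3, Insr, Akt1 and Akt2, were lower, against 11.6% and 24.3% of all genes, and the median was -0.12 against -0.25. With a pseudocount of 0.1 FPKM, or in CPM, 2 were higher (Irs1 and Pik3r1) and 4 lower (Irs2 in addition). Of all 12255 genes, 1831 were higher and 3473 lower with that pseudocount, and 1670 and 2819 in CPM. Under TMM and median-of-ratios scaling Insr stood at -0.93 and -0.92 and was not counted. Less the length bins 1 was higher (Pik3r1) and 2 lower (Insr and Akt2), against 2089 and 2090 of all genes. With the labelled knockdown 6 were higher, namely Insr, Igf1r, Irs1, Irs2, Pik3r1 and Foxo3, and 0 lower, against 33.4% and 20.9% of all genes. The median there was 1.73 against 0.32 for all genes, and 0.53 less the length bins. With the length bins removed 3 genes were 2-fold higher, Irs1, Irs2 and Pik3r1, against 2634 of all 12255 genes. Irs1 passed the limit only through the library in which it was high here, so its place in both counts supports nothing. The 4 comparisons share libraries in pairs, so they are given side by side and not as independent results.

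The difference between the virus effects, the log2 ratio in OGD minus that in normal culture, uses all 4 libraries. It was above 0 for all 9 genes, with a median of 1.58 against 0.61 for all genes, so that most genes were above 0 as well. Less the length bins 7 of the 9 were above 0, all but Igf1r and Foxo1. The difference was at least 2-fold for 7 of the 9, against 37.4% of all genes. Irs1 is among the 7 that were 2-fold and passed the limit only through the labelled knockdown library in OGD, so its place in this count supports nothing. Irs2 had the largest value at 4.38, a ratio of the FPKM folds of 40.9 (32.3 to 51.7), which was 3.02 less its length bin and above 99.7% of the genes there. Insr followed at 2.13, or 12.1-fold (9.35 to 15.7), and Irs1 at 2.10, or 10.2-fold (7.32 to 14.1); they were at 0.78 and 0.75 less their bin. The remaining 6 genes lay between 0.68 and 1.64, and between -0.67 and 0.32 less their bins.

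**Figure D4:**
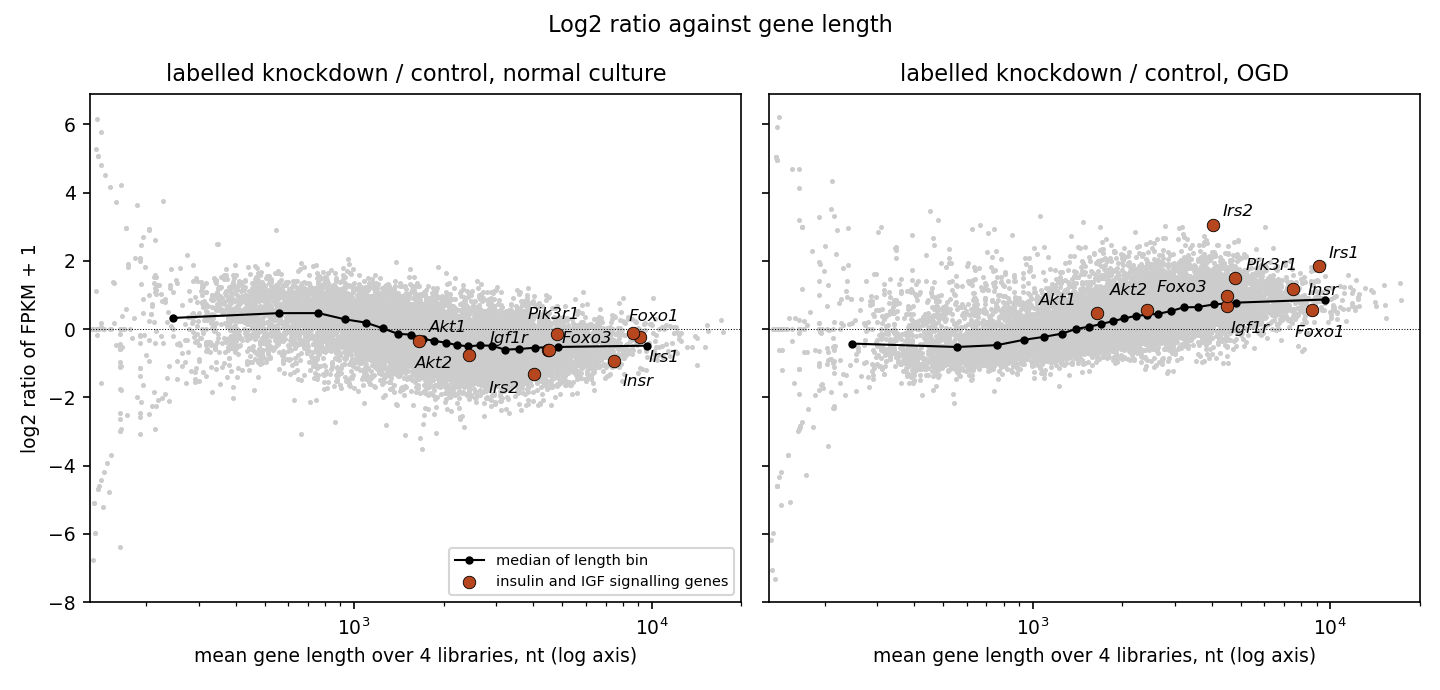
Log2 ratio of labelled knockdown to control against mean gene length (nt, log axis) in normal culture and in OGD; grey points are 12255 genes, the black line joins the medians of 20 length bins and the labelled points are the 9 genes. The bin medians are 0.47 in the second bin, -0.60 at the lowest (bin 16) and -0.48 in the longest in normal culture, and -0.52 in the second and 0.87 in the longest in OGD, and Irs2 is far above the line in OGD.

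Profiles over the 4 libraries, as log2(FPKM + 1) centred on each gene, were compared between members. The closest pairs were Irs1 and Pik3r1 at a Euclidean distance of 0.26, Igf1r and Foxo3 at 0.30, and Akt1 and Akt2 at 0.31, and the farthest was Irs2 and Akt1 at 3.00. Irs2 was nearest to Irs1, at 1.18, and Akt2 to Akt1 and then to Insr, at 1.01. Among the genes compared, those with the profile closest to Irs2, the gene of widest range, were Tnks2 at 0.41, Gpam at 0.43, Crkl at 0.49, Cyb5d1 at 0.51 and Usp33 at 0.52. Crkl, an adaptor of receptor tyrosine kinases, measured 3.40, 1.38, 2.27 and 17.9 FPKM. Gpam, an enzyme of triglyceride synthesis, measured 5.98, 1.11, 2.89 and 22.9 FPKM. These likenesses rest on 4 libraries.

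The other genes of the pathway were read from lists of ligands, binding proteins, receptors, adaptors, kinases, inhibitors, the mTOR branch, AKT substrates and FOXO genes, 137 in all, of which 112 passed the limit of 1 FPKM. In normal culture 1 was at least 2-fold higher in the labelled knockdown library and 28 lower, with a median of -0.55, against 4.67% and 13.9% of all genes and a median of -0.27. In OGD 27 were higher and 0 lower, with a median of 0.71, against 16.2% and 2.28% and a median of 0.26. Less the length bins these medians were -0.13 and 0.12. OGD with control virus gave 16 higher and 33 lower, against 11.6% and 24.3% of all genes. OGD with the labelled knockdown gave 52 higher and 10 lower, against 33.4% and 20.9%. Grb14 and Klf15, among the 33 lower, passed the limit only through the normal-culture control library. Rictor, among the 52 higher, passed it only through the labelled knockdown library in OGD. The places of these genes in the counts support nothing. The lists below are read against the shares of all genes given above, which several of their counts hardly exceed.

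Insulin transcripts were not detected at this depth. Ins1 and Ins2 had 0 counts in every library, which allows at most (3 counts) 0.158 FPKM for Ins1 and 0.529 FPKM for Ins2. Igf1 measured 3.45, 3.38, 3.57 and 2.32 FPKM, from 84 to 135 counts, and Igf2 at most 0.24 FPKM. The binding protein Igfbp6, which prefers IGF-II, was abundant, at 301 FPKM in the normal-culture control library and 572, 716 and 579 FPKM in the other 3. Igf2bp1, an RNA-binding protein of the IGF2 messenger, measured 30.3, 9.75, 8.52 and 15.5 FPKM. Its counts were 1460, 642, 1054 and 986, and the gene length that the authors assigned was 2054, 3026, 4691 and 2934 nt. Its FPKM therefore also carries these lengths, and their part was not tested.

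The other receptor tyrosine kinases and receptors of the list, 8 of 10 of which passed, gave 0 higher and 2 lower in normal culture (all genes 4.67% and 13.9%) and 3 higher and 0 lower in OGD (all genes 16.2% and 2.28%). Igf2r, which clears IGF-II, measured 7.02, 3.43, 5.95 and 18.3 FPKM. Pdgfra, a PDGF receptor, measured 12.9, 3.08, 3.79 and 11.5 FPKM, a pattern of 2 high and 2 low libraries like that of Insr. Of 12 adaptors that passed, 0 were 2-fold higher and 2 lower with the labelled knockdown in normal culture (all genes 4.67% and 13.9%), and 4 were higher and 0 lower in OGD (all genes 16.2% and 2.28%), led by Crkl at 7.86-fold (6.84 to 9.07) and Crk at 4.66-fold (4.32 to 5.05). Crk is also in the authors' deposited table for OGD, with a log2 fold change of 2.01. Dok1, a docking protein that dampens signalling, was 53.4 FPKM in both normal-culture libraries and 5.72 and 4.87 FPKM in OGD.

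Among the other PI3K and AKT kinases, Pdpk1, which encodes the kinase PDK1 that activates AKT, measured 4.37, 1.10, 2.12 and 12.9 FPKM. Its labelled knockdown difference was -1.35 in normal culture and 2.16 in OGD on the log2 scale, or -0.83 and 1.38 less its length bin. Sgk1, an AKT-related kinase, measured 92.8, 24.4, 194 and 353 FPKM, and so was higher in OGD with either virus. Both are in the authors' deposited table for normal culture, with log2 fold changes of -1.503 for Pdpk1 and -1.48 for Sgk1.

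Inhibitors of the pathway, 15 of 17 of which passed, gave 1 higher and 1 lower gene in normal culture and 2 higher and 0 lower in OGD, where 4.67% and 13.9%, and 16.2% and 2.28%, of all genes were called. Trib3, an AKT-binding pseudokinase induced by stress, was the higher one, at 38.9 FPKM in the normal-culture control library, 87.3 FPKM in the labelled knockdown library, and 123 and 114 FPKM in OGD. Socs3, which blocks IRS signalling, measured 217, 132, 15.5 and 24.3 FPKM. Within the mTOR branch, 17 of 18 passed, with 0 higher and 4 lower in normal culture and 2 higher and 0 lower in OGD, the latter below the 16.2% of all genes. Eif4ebp2, a translation repressor that mTOR inhibits, measured 24.5, 11.0, 5.74 and 18.2 FPKM. Among AKT substrates and glucose handling genes, 11 of 14 passed, with 3 lower in normal culture and 2 higher in OGD, against 13.9% and 16.2% of all genes; Gsk3b, a kinase inhibited by AKT, measured 8.68, 3.82, 6.74 and 17.4 FPKM.

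FOXO target genes differed among themselves. Of 29 listed, 23 passed, with 0 higher and 7 lower in the labelled knockdown library in normal culture and 6 higher and 0 lower in OGD, against 4.67% and 13.9%, and 16.2% and 2.28%, of all genes. The medians were -0.74 and 0.79, against -0.27 and 0.26 for all genes, and -0.32 and 0.24 less the length bins. Txnip, an inhibitor of thioredoxin and of glucose uptake, was the most extreme, at 528 FPKM in the control and 45.3 FPKM in the labelled knockdown library in normal culture, and 3.16 and 3.21 FPKM in OGD. Pdk4, a brake on glucose oxidation, measured 24.6, 7.36, 3.95 and 16.6 FPKM. Sesn2, a stress-induced inhibitor of mTOR signalling, measured 6.36, 9.45, 60.8 and 69.9 FPKM. Under either virus, OGD was lower than both normal-culture libraries for Txnip and higher for Sesn2. In OGD against normal culture with control virus the targets gave 3 higher and 9 lower, at a median of -0.82, against 11.6% and 24.3% of all genes. With the labelled knockdown they gave 10 higher and 2 lower, at a median of 0.81, against 33.4% and 20.9%. Klf15, among the 9 lower, passed the limit only through the normal-culture control library. Rictor, among the 10 higher, passed it only through the labelled knockdown library in OGD. Their places in these counts support nothing. The list of other FOXO factors, forkhead factors and FOXO partners, all 13 of which passed, gave 0 higher and 6 lower in normal culture and 6 higher and 0 lower in OGD. All genes gave 13.9% lower and 16.2% higher. The coactivator Ep300 led in OGD, at 3.74 FPKM with control virus and 25.4 FPKM with the labelled knockdown. Its assigned gene length there was 5729 and 3704 nt.

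**Figure D5:**
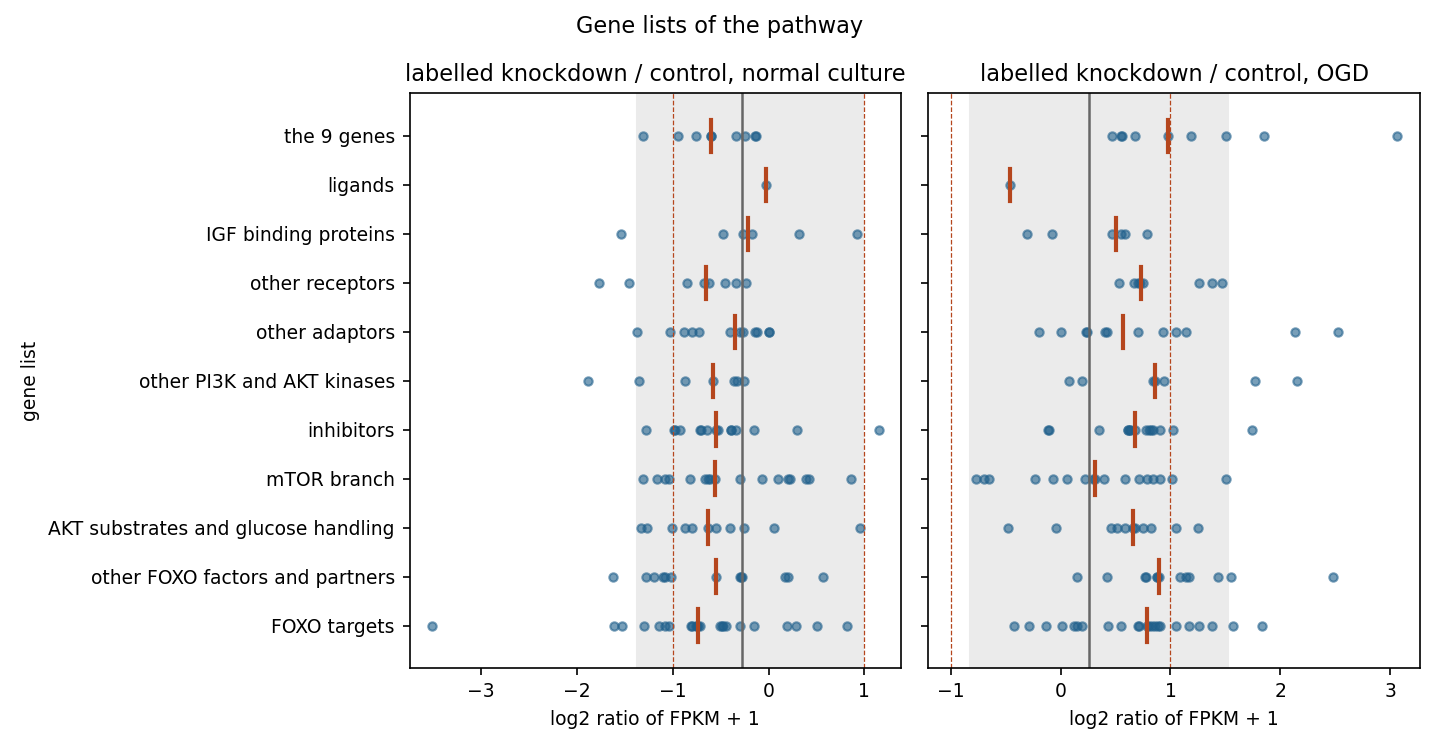
Log2 ratio of FPKM + 1 of labelled knockdown to control for each gene that passed the limit, by list, in normal culture and in OGD; red bars are list medians, grey bands the 5th to 95th percentile and the grey line the median of 12255 genes, and dashed lines mark 2-fold. List medians run from -0.74 to -0.02 in normal culture and from -0.46 to 0.97 in OGD.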

How the data were processed

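RNA sequencing of 4 HT22 libraries, 1 per group, was analysed from the authors' deposited tables. Per the labels, total RNA was fragmented and a cDNA strand was marked with dUTP before PCR. The submitters' processing notes name TopHat2 and mm10; versions, counting tool, annotation and use of strand are not stated there. The authors deposited, per the file headers, an expected count, a gene length and an FPKM per gene; the expected counts were whole numbers, and FPKM could be rebuilt from counts and length within 1% for 100% of genes at 1 FPKM or more. Gene length was the same in every library for all 30906 genes with 1 transcript, but for 3509 of 16163 genes with several, so FPKM of the latter also depends on the authors' transcript estimates. The log2 fold change in the authors' deposited comparison tables was only copied; 4 per-library columns in those tables were not used.

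Computed here were log2 ratios of FPKM + 1 for the 12255 genes that averaged 1 FPKM or more, and folds of FPKM with exact conditional binomial 95% intervals from the counts; intervals of ratios of folds used the normal approximation on the log scale. A difference of at least 2-fold in the log2 ratio was counted; no test between conditions was run. The length bins were 20 groups of genes ordered by mean length. Alternatives were a pseudocount of 0.1, equal FPKM sums, TMM (edgeR 4.0.16) and median-of-ratios (DESeq2 1.42.0) factors, CPM, removal of the length-bin median, filters of none and 5 FPKM, and a 1.5-fold limit. edgeR and DESeq2 supplied only scale factors. Scripts ran in Python 3.11.15 and R 4.3.3 and were tested on simulated data. Named genes were the 9 members, from each pathway list up to 4 genes per comparison with the largest ratio, and the 5 profiles closest to the member of widest range. Igf2, Ins1, Ins2, Irs3, Irs4, Klf15 and the genes sharing the promoter motifs were added after their values were seen. Members and lists were chosen with earlier results of these data known. With 1 library per group, intervals say nothing of variation between cultures.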

Additional observations from a re-analysis of the deposited data

Results flagged for a closer look

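In 7 of the 9 genes the labelled knockdown library was below control in normal culture and above it in OGD, with counting intervals on both sides that exclude equality. The same pattern held for 4799 of all 12255 genes (39.2%), and the opposite pattern for 1794 (14.6%). Irs1 is among the 7 and passed the limit of 1 FPKM only through the labelled knockdown library in OGD, so its place among them supports nothing. Each group holds 1 library, so this difference between conditions was not tested. The log2 ratio in OGD minus that in normal culture was 2.13 for Insr, 1.27 for Igf1r, 2.10 for Irs1, 4.38 for Irs2, 0.81 for Akt1, 1.32 for Akt2 and 1.58 for Foxo3. The median over all 12255 genes was 0.61, and this difference had a Spearman correlation of 0.57 with gene length across genes. Less the length bins the values were 0.78 for Insr, -0.13 for Igf1r, 0.75 for Irs1, 3.02 for Irs2, 0.32 for Akt1, 0.32 for Akt2 and 0.18 for Foxo3; the part of length was not tested.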

How the results depend on the processing

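The median log2 ratio of the 9 genes kept its sign in every comparison under the 6 alternatives. Between viruses in normal culture it moved from -0.60 to -0.077 with the length-bin median removed. In OGD it moved from 0.97 to 1.26 with equal FPKM sums, 0.73 with TMM, 0.69 with median-of-ratios and 0.32 with the length bin removed. For OGD over normal culture with the labelled knockdown it moved from 1.73 to 1.87 with a pseudocount of 0.1, 2.11 with equal sums, 1.41 with TMM, 1.36 with median-of-ratios and 0.53 with the length bin removed; with control virus it stayed between -0.22 and -0.02. The difference between virus effects moved from 1.58 to 2.10, 1.10 and 1.04 under the 3 scalings and to 0.32 with the length bin removed. Insr in OGD over normal culture with the labelled knockdown turned from 1.10 to -0.36, and Igf1r in the difference from 1.27 to -0.13, both with the length bin removed. The cause was not tested.

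The median of all genes moved with scaling. Between viruses it went from -0.27 to -0.51 (equal sums), -0.06 (TMM) and -0.04 (median-of-ratios) in normal culture, and from 0.26 to 0.51, 0.05 and 0.01 in OGD. For OGD over normal culture it went from -0.25 to -0.34, -0.10 and -0.09 with control virus, and from 0.32 to 0.75, 0.02 and -0.02 with the labelled knockdown. Relative to it, the median of the 9 genes in OGD stayed between 0.68 and 0.75, and with the length bin removed it was 0.32. Over 45 gene and comparison values, the length step turned 9 signs and removed 14 of the 2-fold differences, TMM 2 and 4, and median-of-ratios 2 and 5. With a pseudocount of 0.1 the members at least 2-fold different became 0 higher and 2 lower between viruses in normal culture, 5 and 0 in OGD, and 2 and 4 for OGD with control virus. Of all 12255 genes, 801 were then higher and 2508 lower, 2638 and 462, and 1831 and 3473, in the same order.

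Counts of all genes moved as well. In normal culture the 572 higher became 180, 1134 and 1187 under the 3 scalings and 1588 at 1.5-fold, and the 1701 lower became 2940, 965, 911, 779 (length bin) and 3948. In OGD the 1990 higher became 3099, 1264 and 1170, 925 (length bin), 1235 (5 FPKM) and 4030 (1.5-fold), and the 279 lower became 99, 754 and 844, 462 (pseudocount), 155 (CPM) and 1313 (1.5-fold). OGD with control virus went from 1422 and 2977 to 2558 and 4589 at 1.5-fold, and OGD with the labelled knockdown from 4092 higher to 2634 (length bin) and 2661 (5 FPKM) and from 2556 lower to 1459 (equal sums). The difference went from 4579 higher to 3039, 2839 and 1932 (TMM, median-of-ratios, length bin), and from 1554 lower to 647, 2472 and 2623 under the 3 scalings and 2376 at 1.5-fold. The share of 2-fold calls that were higher went from 25.2% to 5.77%, 54.0% and 56.6% in normal culture, from 87.7% to 62.6% and 58.1% (TMM, median-of-ratios) in OGD, from 61.6% to 78.6%, 49.2% and 47.2% for OGD with the labelled knockdown, and from 74.7% to 91.0%, 55.1% and 52.0% for the difference.

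No paired analysis was possible because each group holds 1 library and the labels give no replicate numbers; leaving out a library would empty a group. Depth limits the low genes most: Irs1 rests on 62 counts in its lowest library, Irs2 on 127 and Igf1r on 135.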
